A study of Mus musculus with 108 samples.

Results

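Hematopoietic progenitors (HP) were the last of the 5 stages screened for enhancer activity during the differentiation of mouse embryonic stem cells to blood, and 19 of the 108 samples of the series came from them. The series held 95 sorted populations in all, and HP was chosen by the sample titles. Short pieces of open chromatin, cut out by the Tn5 transposase, had been cloned in front of the HSP68 minimal promoter and a Venus-YFP reporter, and 1 such construct was placed at the Hprt locus of each HM-1 embryonic stem cell. The cells were differentiated in serum and then in blast culture with VEGF and IL-6, HP cells were isolated as KIT+ TIE2- CD41+ cells, and these were sorted by YFP. In replicates 1 to 4 the gates were Negative, Low, Medium and High, and in replicate 5 they were Negative, Low and Medium/High. All groups therefore shared the HM-1 line, the reporter and the differentiation protocol, and they were defined by their YFP level. Everything was measured in 1 stem cell line and at 1 integration site, and the lists hold DNA fragments and no RNA, so the surface phenotype was not checked here.

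Each list gives the genomic fragments recovered by PCR from the cells of a gate, with distal fragments and promoter fragments in separate lists. For every replicate the Low, Medium, High and Medium/High lists were joined into 1 YFP-positive set. In the main tests the 5 positive sets were compared with the 5 Negative sets, without pairing by replicate number. A fragment that drives the minimal promoter in HP cells should appear in the positive set, and a fragment without activity should be left in the Negative set. An enhancer binds transcription factors such as RUNX1, GATA2, TAL1 and PU.1 and raises transcription from a promoter at a distance. In progenitors these factors act together on the same elements, among them enhancers of their own genes. Promoter fragments lie at or near a natural start of transcription, and many housekeeping promoters can drive a reporter in most cell types.

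The positive sets held 66005, 22017, 683, 823 and 1333 distal fragments in replicates 1 to 5, and the Negative sets held 11491, 11172, 490, 2387 and 223. Promoter fragments were more numerous, with 127422, 44580, 1625, 1982 and 3160 in the positive sets and 24520, 23971, 1479, 5531 and 595 in the Negative sets. Replicates 1 and 2 thus supplied nearly all fragments, and the positive set was the larger in every replicate but replicate 4. Since a fragment is listed once whatever its read number, the number of different fragments over a gene was the measure used, and its depth was the size of the set. The plot of set sizes gives these numbers by replicate.

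**Figure D1:**
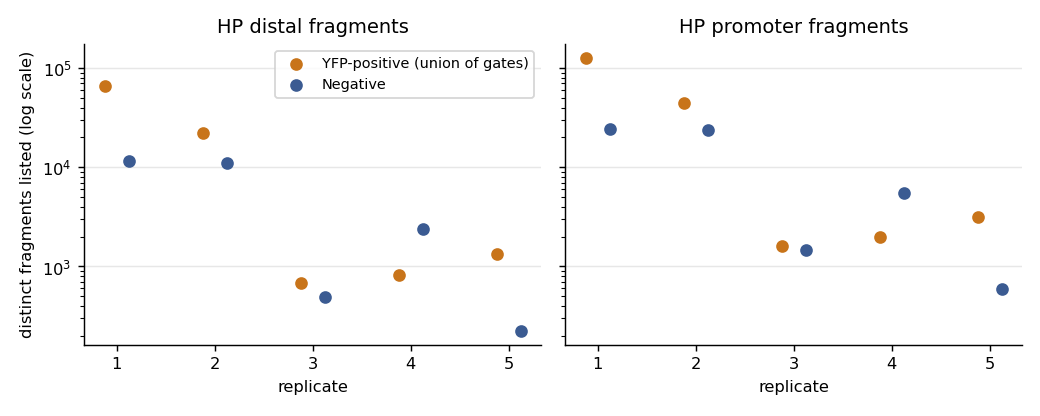
Distinct distal (left) and promoter (right) fragments listed in the YFP-positive and Negative HP sets of replicates 1 to 5, on a log axis. Replicates 1 and 2 hold between 11172 and 127422 fragments per set, and replicates 3 to 5 between 223 and 5531.

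Several lists stood apart before any comparison. Negative replicate 3 had only 27.8% of its 1969 fragments in the plasmid libraries (95% Wilson interval 25.9 to 29.9%), against 48.9 to 89.8% of the other HP lists. It shared 63.3% of its fragments with the Low list of replicate 4 of the early hemogenic endothelium (HE1; interval 61.1 to 65.4%) and 60.0% with the HE1 Negative list of replicate 3. High replicate 2 and the hemangioblast Medium list of replicate 2 had 57.4% of the shorter one in common. Medium replicate 1 held 50.1% of the HE1 Medium/High list of replicate 5, and Low replicate 2 shared 35.0% with Medium replicate 1. The median over HP lists of different replicates was 2.79%, and over HP lists of the same replicate 13.2%. Low replicate 4 also shared up to 40.95% with lists of replicate 4 of other stages, and results without replicate 4 are among those with each replicate left out. Negative replicate 4 held 38.3% of the Negative list of replicate 4 of the late hemogenic endothelium. Negative replicate 5 shared 33.9% of its fragments with the HE1 High list of replicate 1. The 4 lists Negative 3, High 2, Medium 1 and Low 2 were left out as an alternative, and Negative 4, Negative 5 and Low 4 were kept. This was done for tests of genes, loci and sites, and for motif densities, base content, position and plasmid reads. These were also compared without Negative replicate 3 alone. Numbers reached at equal depth were compared only without the 4 lists. Gate shares and the comparison with other stages were made in neither setting. Fragments identical to one in the HM-1 control PCR made up 0.258 to 6.11% of the HP lists. Intervals cover counting error only, because PCR products without molecular identifiers are not independent molecules.

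The fragments of 6 loci of blood regulators are shown so that the recovered elements near known blood genes can be read beside their counts. For each locus the site with a positive fragment in most replicates was taken, and of its fragments of at most 300 bp the one listed by most HP positive lists. Sequences are the plus strand of mm10, read from RefSeq's copy of that assembly, 5′ to 3′. Capitals mark matches on either strand to any of 7 motifs. The RUNX motif was spelled TGTGGT, the motif of GATA factors was spelled AGATAA, and the ETS family motif was spelled CCGGAA. PU.1 was searched as GAGGAA, the TAL1 E-box as CAGATG, AP-1 as TGANTCA, and the motif of CEBP factors as TTGCNNAA.
Gata2: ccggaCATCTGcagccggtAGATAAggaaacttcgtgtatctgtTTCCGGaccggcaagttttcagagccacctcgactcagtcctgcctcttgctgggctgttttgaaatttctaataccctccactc
Kit: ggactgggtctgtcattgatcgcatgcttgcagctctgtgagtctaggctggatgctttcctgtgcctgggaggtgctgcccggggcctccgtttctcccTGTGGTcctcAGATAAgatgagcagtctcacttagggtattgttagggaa
Spi1: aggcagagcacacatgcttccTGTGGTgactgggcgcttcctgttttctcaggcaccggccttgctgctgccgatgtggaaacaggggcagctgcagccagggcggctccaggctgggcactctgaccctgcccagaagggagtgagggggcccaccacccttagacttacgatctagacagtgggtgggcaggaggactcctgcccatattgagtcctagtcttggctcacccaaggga
Tal1: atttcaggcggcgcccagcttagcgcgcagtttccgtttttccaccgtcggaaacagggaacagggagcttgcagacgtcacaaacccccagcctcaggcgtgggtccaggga
Runx1: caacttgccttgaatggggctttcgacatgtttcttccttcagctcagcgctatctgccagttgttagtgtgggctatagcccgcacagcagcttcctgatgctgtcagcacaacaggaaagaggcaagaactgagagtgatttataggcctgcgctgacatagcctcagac
Itga2b: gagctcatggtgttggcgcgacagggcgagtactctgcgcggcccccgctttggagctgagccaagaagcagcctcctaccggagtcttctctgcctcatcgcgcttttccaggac

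The *Gata2* fragment lay at chr6:88203180-88203308, in an intron, its middle 4910 bases downstream of the closest protein-coding start. *Gata2* encodes a GATA factor needed for blood stem and progenitor cells, and an intronic enhancer of this gene with an E-box followed by a GATA motif is known to act in hemogenic endothelium and progenitors. The fragment held that arrangement, an E-box on the minus strand and AGATAA on the plus strand with 8 bases between them, and an ETS match further on. The 3 motifs were found in 12.5, 10.1 and 3.93% of the 17752 distal fragments of all sorted lists that were within 5 bp of its length. It was listed in the High and Low gates of replicate 1 and in no Negative list.

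The *Kit* fragment at chr5:75607985-75608134, intronic and 33104 bases downstream of the start, was listed in High replicate 2 alone. It held a RUNX match and a GATA match with 4 bases between them, and these motifs occurred in 13.96 and 11.30% of the 14145 distal fragments of like length. The *Spi1* fragment at chr2:91083060-91083299 held a RUNX match, a motif present in 16.9% of 17413 fragments of its length. It was listed in Low replicate 2 and Medium replicate 1, but also in 2 Negative sets. These 2 positive lists share many fragments with each other, and High replicate 2, which lists the *Kit* fragment, shares many with a hemangioblast list. None of the 7 motifs, as spelled here, occurred in the fragments of *Tal1* (chr4:115052832-115052944), *Runx1* (chr16:92884057-92884228) and *Itga2b* (chr11:102467347-102467462). The *Tal1* fragment was listed in High replicate 1 and Medium replicate 2. Those of *Runx1* (High and Medium) and *Itga2b* (Low and Medium) were listed in replicate 1 alone. Medium replicate 1 is among the lists that share many fragments with others. Like the *Gata2* fragment, these 3 were in no Negative list. Of all 84001 distal fragments of the positive sets, 11.24% were in one. A match is a description of letters and does not show that a factor binds.

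The site of the *Gata2* intron as a whole, chr6:88202939-88204014, had 5, 1, 0, 1 and 0 positive fragments in replicates 1 to 5 and 1, 0, 0, 1 and 0 Negative fragments. It was positive in 3 replicates and Negative in 2. The best *Tal1* site (chr4:115052401-115053134), intergenic and 3.67 kb upstream of the start, had 10 and 2 positive fragments in replicates 1 and 2 and 2 Negative fragments, both in replicate 2. *Tal1* encodes a helix-loop-helix factor that specifies blood. The intronic *Spi1* site, whose middle was 0.677 kb downstream of a start, had 11 and 5 positive fragments against 1 and 2. *Spi1* encodes PU.1, the main factor of the myeloid lineage. All of these fragments came from replicates 1 and 2, apart from those of *Gata2* in replicate 4.

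The chosen *Runx1* site lay at chr16:92883749-92884435, 57.9 kb upstream of the start, and held 6 and 2 positive fragments in replicates 1 and 2 against 5 and 3 Negative fragments. Relative to set size it was lower in positive cells, with a log2 ratio of -1.70 ± 0.47 (SE) and an edgeR adjusted p of 0.937. *Runx1*, the master regulator of blood formation, had 16 distal sites with an HP fragment, all 16 with a positive fragment and 4 with a Negative one, and no site was positive in 3 replicates. The *Fli1* site chr9:32607078-32607763 had 4 and 4 positive fragments in replicates 1 and 2 and 2 Negative fragments in replicate 2. The *Meis1* site chr11:18957518-18958009, in an intron, had a single positive fragment in each of replicates 1, 3 and 4 and 1 Negative fragment in replicate 2. The *Csf1r* site in an intron had 8 and 4 positive fragments and 1 Negative fragment, and the *Itga2b* site had 9 and 4 against 2, 2 and, in replicate 4, 1. *Itga2b* encodes CD41, one of the markers by which HP cells were sorted. The *Kit* site had 1 positive fragment in each of replicates 1 and 2 and no Negative fragment. No distal HP fragment had *Gfi1b* as its closest gene.

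Distal fragments were next summed over loci, a locus being all distal fragments with the same closest protein-coding gene. At least 1 positive distal fragment was found at 21 of 25 genes on a list of blood transcription factors, and a Negative one at 20. Any distal HP fragment was found at 22 of them. Over all 10255 loci with an HP fragment, 235 lacked a positive one and 3101 a Negative one. *Zfpm1*, which encodes the GATA1 partner FOG1, had 49 and 12 positive fragments in replicates 1 and 2 and none later, against 8, 5 and, in replicate 4, 1 in Negative cells. *Meis1*, a homeobox gene of stem and progenitor cells, had 40, 7, 1, 1 and 0 positive fragments against 6, 3, 0, 3 and 0. *Runx1* had 31, 9, 0, 0 and 1 against 8, 3, 0, 1 and 0. *Cbfa2t3*, whose product is a co-repressor, had 26, 9, 0, 0 and 1 against 4, 7, 0, 0 and 0. Because the positive sets of replicates 1 and 2 were the larger, such numbers have to be read against set size. The log2 ratios of these 4 genes with set size taken into account were 0.29 ± 0.41, 0.20 ± 0.47, -0.05 ± 0.43 and -0.10 ± 0.45 (SE), none larger than its error.

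**Figure D2:**
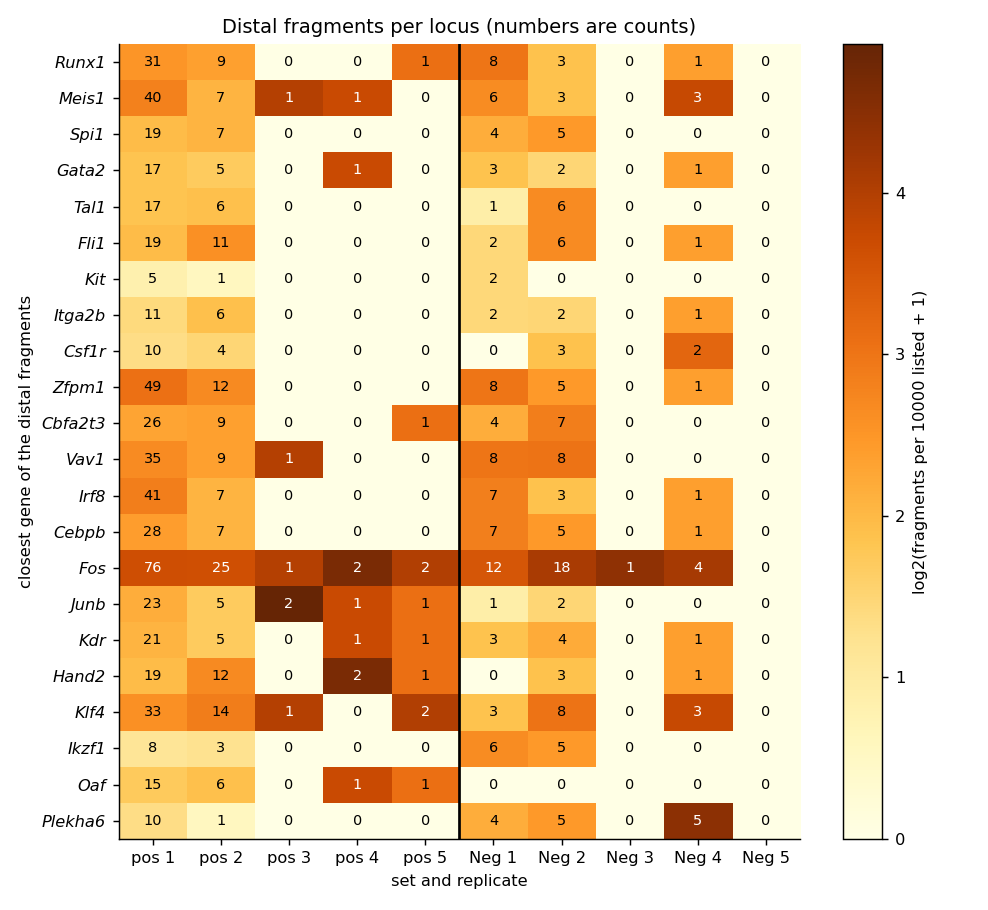
Distal fragments with the named closest gene in each YFP-positive (pos) and Negative (Neg) HP set of replicates 1 to 5, where the number is the count and the colour is log2 of fragments per 10000 listed plus 1. Most rows hold fragments in replicates 1 and 2 of both groups, Fos has them in 9 of 10 sets, and Oaf has 23 positive and 0 Negative fragments.

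Over all 3929 loci with a fragment in at least 4 of 10 sets, edgeR's quasi-likelihood test called none at an adjusted p of 0.05 (0% of those tested, 125 at an unadjusted p under 0.05). Limma had 18 and DESeq2 2 under an unadjusted 0.05, and neither called any. The locus with the smallest p was *Oaf*, with 15, 6, 0, 1 and 1 positive fragments and no Negative fragment in any replicate (adjusted p = 0.993). It entered the test through its 4 positive sets alone, so its direction was fixed by the filter, and no fold is given. *Bmp7* (12, 6, 0, 2 and 0) and *Cebpg* (13, 3, 0, 0 and 1) also had no Negative fragment, and were picked out after their values were seen. Of all 10255 loci, 110 were positive in at least 3 replicates and never Negative, and 0 were the reverse. In sets thinned to equal size these numbers were 26 and 17. *Slc16a1*, the lactate transporter MCT1, had 13, 7, 0, 1 and 1 positive fragments against 1 Negative fragment. Its 4 positive sets alone were enough for the filter, so no fold is given for it either.

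The other 3 loci with the smallest p on the positive side were *Atp6v0a2* (25 positive fragments against 1, ratio 7.09, interval 1.16 to 291), *Nsmce1* (22 against 1, ratio 6.24) and *Ksr1* (44 against 4, ratio 3.12, interval 1.14 to 11.9). On the other side stood *Plekha6*, *Add2*, *Myl12a*, *Cry2* and *Ppp1r13b*. *Plekha6* had 10 and 1 positive fragments in replicates 1 and 2 and 4, 5 and 5 Negative fragments in replicates 1, 2 and 4, a ratio of 0.223 (interval 0.0915 to 0.528). *Cry2*, a gene of the circadian clock, had 1 positive and 6 Negative fragments. All 10 of these loci had an adjusted p of 0.993, and the counting intervals take no account of their choice by p. The 4 Negative sets of *Ppp1r13b* alone were also enough for the filter. Without the 4 lists that share fragments the log2 ratio of *Plekha6* moved from -2.07 to -3.01, with an edgeR adjusted p of 0.0561. On the scale of the fit the median locus was at -0.20, and TMM normalisation moved this median to 0.34, so that ratios near 0 have no direction of their own.

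Recurrence over replicates was counted next. A positive fragment in at least 4 of 5 replicates was found at 304 of 10255 loci (2.96%), and a Negative one at 169 (1.65%). Of the blood transcription factors only *Meis1* reached 4 positive replicates. Among 14 AP-1 genes, which encode signal-responsive leucine zipper factors, *Fos* and *Junb* did so, and *Fos* and *Bach2* were Negative in 4. *Fos* had 76, 25, 1, 2 and 2 positive fragments against 12, 18, 1, 4 and 0, so that both groups held it in nearly every set (log2 ratio -0.22 ± 0.27). *Junb* had 23, 5, 2, 1 and 1 positive fragments against 1, 2, 0, 0 and 0, a log2 ratio of 1.51 ± 0.68 with an adjusted p of 0.993. With TMM this ratio was 2.09, and the positive sets of *Junb* alone were enough for the filter. The AP-1 genes as a group lay within 0.1 of all loci, at 0.08 above the median of all without TMM and 0.09 below it with TMM.

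Of 18 endothelial genes only *Kdr*, the receptor FLK1, was positive in 4 replicates, with 21, 5, 0, 1 and 1 fragments against 3, 4, 0, 1 and 0. Of 18 mesoderm and cardiac genes it was *Hand2*, with 19, 12, 0, 2 and 1 against 0, 3, 0, 1 and 0. Among 18 pluripotency genes *Klf4* (33, 14, 1, 0 and 2 against 3, 8, 0, 3 and 0) and *Prdm14* (6, 2, 0, 1 and 1 against 1, 1, 0, 0 and 0) reached 4. Among 18 myeloid genes *Ncf4*, a subunit of the phagocyte oxidase, was positive in all 5 replicates with 6, 4, 1, 1 and 1 fragments against 2, 1, 0, 0 and 0. In Negative cells *Laptm5* of the myeloid genes and *Mef2c* of the mesoderm and cardiac genes reached 4 replicates. No gene of 18 erythroid and megakaryocyte genes, 18 progenitor surface markers or 47 ribosomal protein genes was positive in 4 replicates.

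The larger myeloid loci had fragments in both groups. *Irf8*, a factor of the monocyte lineage, had 41 and 7 positive fragments in replicates 1 and 2 against 7, 3, 0, 1 and 0, *Cebpb* had 28 and 7 against 7, 5, 0, 1 and 0, and *Laptm5* had 12, 5, 0, 0 and 3 against 2, 3, 0, 2 and 1. Among surface marker loci were *Vav1*, a signalling protein of blood cells, with 35, 9, 1, 0 and 0 against 8, 8, 0, 0 and 0, and *Cd34* with 21, 4, 0, 0 and 0 against 4, 4, 0, 1 and 0. Of the tested members of all 10 lists, 3 distal loci had an unadjusted p under 0.05 in edgeR, which were *Ikzf1* (8 and 3 positive fragments against 6 and 5), *Lcp1* (3 against 5) and *Junb*, and none passed after adjustment. Of the genes that the study named as having VEGF-responsive elements, 7 formed a list. Their elements had been taken from this screen, so they are no independent evidence. The study called the response to VEGF from chromatin accessibility in serum-free culture and measured expression in single cells. All 7 had a positive distal fragment and 4 a Negative one, where over all 10255 loci 235 lacked a positive fragment and 3101 a Negative one. Their tested members lay 0.39 below the median of all loci.

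Median log2 ratios of the lists, minus that of all loci, ran from -0.49 for 2 tested erythroid and megakaryocyte genes to 0.46 for 7 ribosomal protein genes. The endothelial genes were 0.31 above it (12 tested), the pluripotency genes 0.40 above it (6 tested), the myeloid genes 0.22 below it (8 tested) and the mesoderm and cardiac genes 0.20 below it (12 tested). Blood transcription factors were 0.10 above it without TMM and 0.06 below it with TMM (17 tested). With TMM the ribosomal protein genes were 0.19, the endothelial genes 0.18 and the pluripotency genes 0.34 above the median of all loci. These medians are descriptions, and no list was tested as a group.

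Single sites, which are distal fragments merged where they overlap, were tested next. Of 25768 distal sites with an HP fragment, 163 were positive in at least 4 replicates (0.633%) and 71 were Negative in at least 4 (0.276%). Of the 3783 sites tested, edgeR called none (0%), with 151 under an unadjusted 0.05, 16 in limma and 1 in DESeq2, none of them past adjustment. The 17 sites positive in all 5 replicates included those near *Chd2* (chr7:73537539-73538474) and *Zfp958* (chr8:4677378-4678482). The *Chd2* site had 37, 17, 1, 1 and 2 positive fragments against 11, 12, 0, 2 and 1, and the *Zfp958* site 35, 10, 1, 1 and 3 against 7, 12, 1, 3 and 2. Both were thus found in Negative cells as well, and their log2 ratios were -0.65 ± 0.32 and -0.81 ± 0.42 (SE). The middle of the *Chd2* site lay 0.378 kb from an annotated start, although it was in the distal lists. Between 6.74 and 10.0% of the distal fragments of a set lay within 1.5 kb of a protein-coding start of GENCODE M21, and leaving them out left 0 of 3713 loci and 0 of 3476 sites called.

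The promoter lists gave the same comparison at genes with a start within 1.5 kb of a fragment. Of 13216 such genes, 1021 were positive in at least 4 replicates (7.73%) and 654 were Negative in at least 4 (4.95%). The most heavily covered of the 196 genes positive in all 5 replicates, picked out after their values were seen, were *Mnt*, which encodes a partner of MAX, and *Dnpep*. *Mnt* had 114, 46, 3, 1 and 2 positive fragments and 22, 29, 4, 5 and 1 Negative ones, and *Dnpep* had 101, 38, 1, 3 and 4 against 24, 23, 1, 2 and 1. Both were found in all 10 sets. *Atpaf2* and *Gid4* had identical numbers because each fragment was counted for every gene with a start in reach, so neighbouring starts cannot be told apart.

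Among blood regulators the promoter of *Nfe2*, a factor of the erythroid and megakaryocyte lineages, was positive in all 5 replicates with 18, 6, 1, 2 and 1 fragments, against 5, 8, 0, 1 and 0. With set size taken into account its log2 ratio was -0.65 ± 0.48 (SE, adjusted p = 0.986 in edgeR). *Cbfa2t3* had 46, 14, 0, 0 and 1 against 6, 8, 0, 3 and 0, *Lyl1*, a relative of *Tal1*, had 36, 14, 0, 0 and 2 against 10, 8, 0, 1 and 0, and *Ldb1* had 17, 8, 1, 0 and 0 against 1, 5, 0, 2 and 0. A positive promoter fragment was found at 24 of 25 blood transcription factors, the exception being *Gata1*, with 1 Negative fragment, and a Negative one at 23. Over all 13216 promoter genes 97 lacked a positive fragment and 1754 a Negative one. The *Spi1* promoter had 1 positive and 1 Negative fragment, both in replicate 1. The *Kit* promoter had 14, 4, 0, 0 and 1 against 6, 2, 0, 0 and 0, and that of *Itga2b* had 24, 7, 0, 0 and 0 against 5, 7, 0, 2 and 0. Only *Itgb3*, which pairs with CD41 on megakaryocytes, reached 4 positive replicates among the surface markers, with 14, 4, 0, 2 and 1 against 4, 3, 0, 1 and 0.

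In the remaining lists *Jund* (25, 9, 1, 1 and 1 against 6, 2, 0, 0 and 0) and *Rpl27* (42, 21, 2, 2 and 1 against 7, 5, 1, 1 and 0) were positive in all 5 replicates. The red cell factor *Klf1* had 14 and 3 positive fragments in replicates 1 and 2 and 1 Negative fragment in each of replicates 1 and 4, and the transferrin receptor gene *Tfrc* had 11, 10, 0, 0 and 2 against 1, 4, 0, 0 and 0. A promoter fragment, positive or Negative, was found at 7 of 18 myeloid and 7 of 18 erythroid and megakaryocyte genes. It was found at 45 of 47 ribosomal protein genes, 16 of 18 endothelial and 11 of 18 pluripotency genes. The share over all protein-coding genes was not counted. These numbers therefore tell which promoters were listed at all and not which score in HP. *Elane*, *Ctsg* and *Lyz2*, which encode proteins of granulocytes and macrophages, and the globin genes *Hba-a1*, *Hba-x*, *Hbb-bh1* and *Hbb-y* had none, and the embryonic stem cell genes *Nanog* and *Pou5f1* had none either. Of the ribosomal protein genes 1 was positive and 6 were Negative in at least 4 replicates. Over all 13216 promoter genes the shares were 7.73 and 4.95%, and the list was not tested against them.

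Of 8620 promoter genes tested, edgeR called none (0%), with 335 under an unadjusted 0.05, of which 116 were higher and 219 lower in positive cells. This split depended on the scaling, since with TMM 85 were higher and 16 lower, and in limma 53 and 22. Limma had 75 and DESeq2 2 under an unadjusted 0.05 and called none. The smallest p belonged to *Sox9*, a factor of cartilage and many epithelia, with 4 and 1 positive fragments in replicates 1 and 2 against 11 and 1 Negative fragments. Its log2 ratio was -2.72 ± 0.63 (SE) with an adjusted p of 0.659. Of the 12 Negative fragments 11 came from replicate 1. *Itgav* (6 against 11), *Klhdc4* (5 against 10), *Rdh13* (7 against 12) and *Zfp251* (8 against 12) followed, at ratios per listed fragment of 0.157 to 0.209. The 4 Negative sets of *Rdh13* alone were enough for the filter.

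On the positive side the smallest p belonged to *Gclm*, *Rcan1*, *Asb3*, *Rb1cc1* and *Fbrsl1*. *Gclm*, a subunit of the enzyme that starts glutathione synthesis, had 26, 4, 0, 1 and 0 positive fragments against 1 Negative fragment, a ratio of 9.73 (95% counting interval 1.62 to 397). *Rcan1*, an inhibitor of calcineurin, had 26, 13, 0, 0 and 1 against 2 (ratio 6.28, interval 1.63 to 53.6). *Rb1cc1*, which encodes a component of the autophagy initiation complex, had 17, 7, 1, 2 and 0 against 1 and so was positive in 4 of 5 replicates. These positive sets alone were enough for the filter. The adjusted p was 0.986 for each of these 5 genes, and the counting intervals take no account of their choice by p. The list medians of the promoter fit, minus that of all genes, ran from -0.34 for mesoderm and cardiac genes (7 tested) to 0.59 for erythroid and megakaryocyte genes (3 tested), and blood transcription factors were 0.15 below all genes (15 tested). Only *Rps28* of the tested list members had an unadjusted p under 0.05 in edgeR (15 against 11 fragments, adjusted p = 0.986).

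In simulated counts with the same set sizes, in which 200 features were changed, the edgeR fit found 144 of 200 promoter genes, 153 of 200 loci and 124 of 200 sites at a change of 16-fold. At 4-fold it found 78, 71 and 28. Limma found 82, 62 and 44 at 16-fold and 0 of each at 4-fold, so that its lack of calls adds little. DESeq2 was not tried on simulated counts. Changes of 4-fold or less at a locus or site would thus mostly have gone unseen at this depth.

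Because the positive sets were larger, recurrence was also counted with both sets of a replicate thinned to the size of the smaller in a single random draw. A fragment in at least 4 replicates was then found at 458 of 12548 promoter genes in positive cells (3.65%) and at 383 in Negative cells (3.05%). The numbers were 105 (1.21%) and 95 (1.09%) of 8697 distal loci, and 34 (0.187%) and 35 (0.193%) of 18165 distal sites. The thinned sets of replicate 1 reached 9624 promoter genes in positive and 9379 in Negative cells, those of replicate 2 reached 9468 and 9369, those of replicate 3 1276 and 1066, those of replicate 4 1599 and 1833, and those of replicate 5 632.5 and 618.0. Positive cells were higher in every replicate but replicate 4, and the mean difference was 66.8 genes (exact two-sided permutation test, adjusted p = 0.881). For distal sites the mean difference was 91.8 with the same adjusted p in the exact test.

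**Figure D3:**
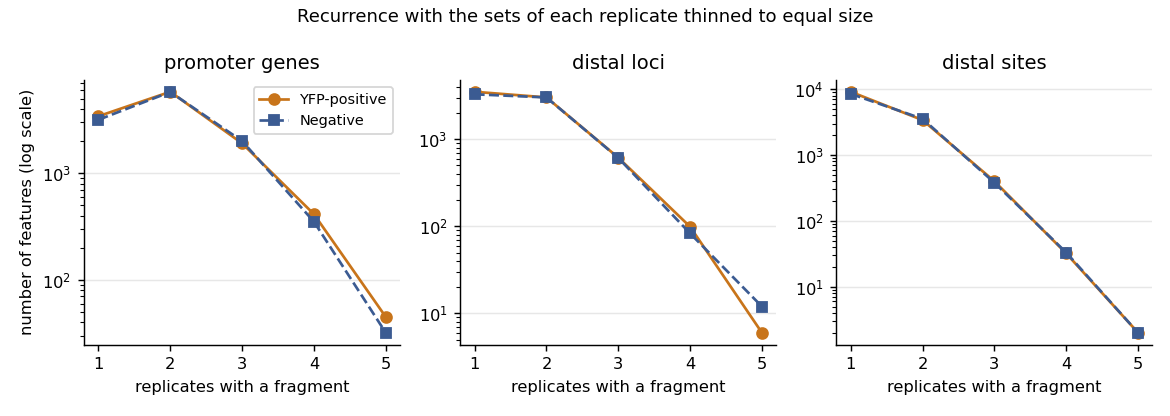
Number of promoter genes, distal loci and distal sites (log axis) with a fragment in 1 to 5 replicates, for YFP-positive (circles) and Negative (squares) HP sets. The sets were thinned to equal size within each replicate in a single random draw. At 4 replicates the numbers are 413 and 351 promoter genes, 99 and 83 loci, and 32 and 33 sites.

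Identical fragments seldom came back. Of the distal fragments in positive sets, 77211 were positive in 1 replicate, 6723 in 2, 64 in 3, 3 in 4 and 0 in 5. Of the promoter fragments 154511 were positive in 1 replicate and 4 in all 5, and none of these 4 was absent from the Negative sets. There were 30 distal and 49 promoter fragments that were positive in 3 replicates and Negative in none. In the other direction 1 distal and 1 promoter fragment were Negative in 3 replicates and never positive, but the sets differed in size. For sites, where thinned sets were also counted, 229 were positive in at least 3 replicates and never Negative and 2 the reverse, and in sets of equal size these numbers were 40 and 48. For loci they went from 110 and 0 to 26 and 17.

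What the fragments of positive cells shared was then compared with Negative cells by sequence. Matches to 16 motifs were counted on both strands per kb, and all differences of positive and Negative sets were tested by an exact two-sided permutation over all divisions of the 10 sets, whose smallest p is 0.00794. No motif passed an adjusted p of 0.05 in distal fragments, and none was under 0.05 before adjustment. RUNX matches were at 1.03 ± 0.12 per kb in positive and 0.925 ± 0.20 in Negative sets (SD, n = 5, exact permutation, adjusted p = 0.875). In replicates 1 to 5 they were at 1.02, 1.01, 0.992, 0.893 and 1.22 against 1.10, 1.08, 0.590, 0.938 and 0.921. Positive sets were higher in replicates 3 and 5 only, and the low Negative value of replicate 3 came from the list that shared most of its fragments with HE1. GATA matches were at 0.605 ± 0.032 and 0.576 ± 0.14, PU.1 at 1.43 ± 0.068 and 1.39 ± 0.096, the TAL1 E-box at 0.960 ± 0.050 and 0.913 ± 0.18, and AP-1 at 0.489 ± 0.058 and 0.494 ± 0.083. All of these differences were smaller than the spread of the Negative sets. Without Negative replicate 3 the difference was 0.0172 for RUNX in place of 0.101, -0.0291 for GATA in place of 0.0291, -0.0235 for the TAL1 E-box in place of 0.0470, and 0.00957 for PU.1 in place of 0.0418. SOX matches had the smallest p, at 0.252 ± 0.045 and 0.300 ± 0.030 per kb (exact permutation p = 0.0794, adjusted p = 0.875), and positive sets were lower in 4 of 5 replicates.

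Promoter fragments held 5.40 ± 0.16 KLF/SP matches (GGGCGG) per kb in positive and 5.32 ± 0.33 in Negative sets, and 1.20 ± 0.089 and 1.11 ± 0.095 ETS matches (SD, n = 5). Again no motif passed, and the smallest exact permutation p was 0.0714, for CEBP. Matches to NFY (CCAAT), the box bound by the NF-Y complex at many promoters, were denser in the positive set of every replicate, at 2.12, 2.12, 1.81, 1.97 and 2.29 per kb against 2.06, 2.06, 1.53, 1.82 and 2.21. The groups overlapped, since the spread between replicates was larger than the difference within them, and the mean difference of 0.127 had an adjusted p of 0.727 in the exact permutation test. TEAD (GGAATG) and MYB (TAACNG) matches were in turn lower in the positive promoter set of all 5 replicates, with mean differences of -0.0214 and -0.0284 per kb (exact permutation, adjusted p = 0.413 each).

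**Figure D4:**
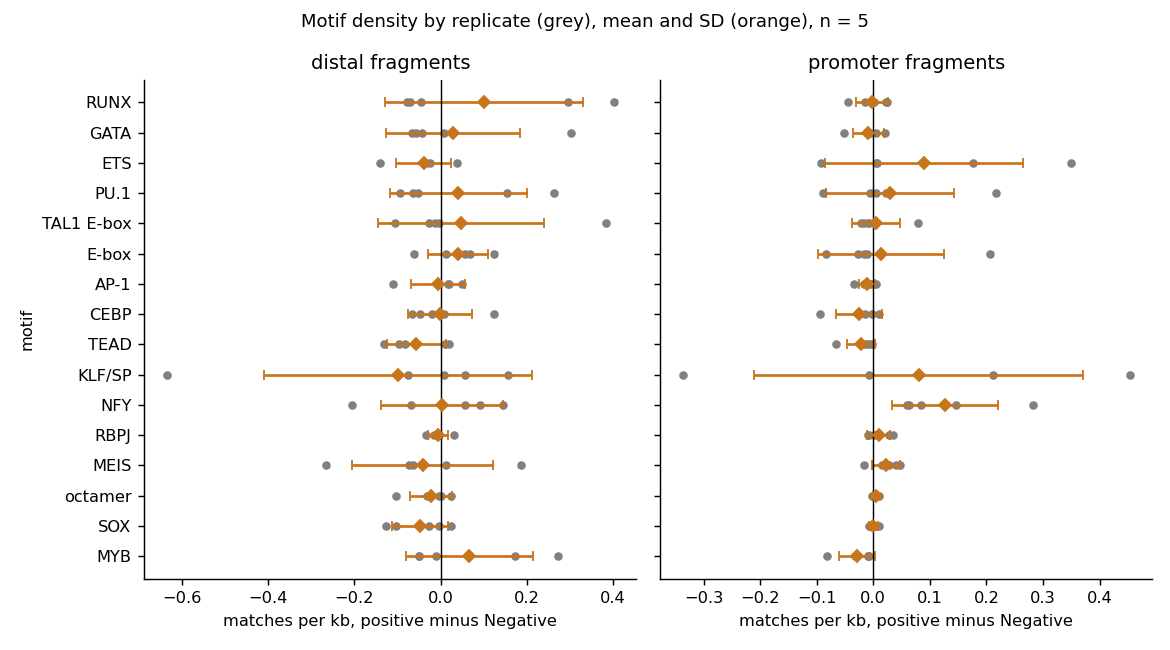
Motif matches per kb in YFP-positive minus Negative HP sets for distal (left) and promoter (right) fragments, with each replicate in grey and the mean and SD of 5 replicates in orange. The mean RUNX difference of 0.101 in distal fragments rests on 2 replicates, and NFY in promoter fragments is above 0 in 5 of 5.

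The motif differences of distal HP fragments were compared with those of the 2 nearest stages, the late (HE2) and early (HE1) hemogenic endothelium. The lists of these stages shared fragments with HP lists. HP Negative replicate 3 shared 63.3% of its fragments with HE1 Low replicate 4 and 60.0% with HE1 Negative replicate 3. HP Low replicate 4 shared 40.03% with HE2 Low replicate 4. The permutation takes the differences of the stages as independent, which they were not, so its p-values are descriptions only. Of 32 comparisons none passed an adjusted p of 0.05. The lowest were a TEAD difference of -0.056 per kb in HP against 0.055 in HE2 and 0.061 in HE1 (exact permutation p = 0.0476 each, adjusted p = 0.381), an ETS difference of -0.039 against 0.028 in HE2 and a SOX difference of -0.047 against 0.058 in HE1 (exact permutation p = 0.0397 each, adjusted p = 0.381).

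Base content and position were compared in the same way. The mean GC content of distal fragments was 55.6, 56.2, 55.8, 56.7 and 56.6% in the positive sets and 55.9, 56.0, 57.6, 56.2 and 56.3% in the Negative sets. That of promoter fragments lay between 65.5 and 66.5% in all 10 sets. A transcription start lay within 45.2 to 54.2% of the promoter fragments of positive sets and 46.9 to 57.0% of those of Negative sets, and 37.5 to 40.3% and 35.4 to 43.5% of the distal fragments were intergenic. The mean differences were -0.200, -0.138, -1.37 and 0.186 percentage points, and the adjusted p was 0.881 for each in the exact permutation test. Without replicate 3 the promoter fragments of the positive sets had 65.52 to 65.80% GC and those of the Negative sets 65.84 to 66.12%, so that the groups did not overlap (difference -0.255 points, exact permutation p = 0.0286, the smallest possible, adjusted p = 0.114). Without Negative replicate 3 alone the difference in GC content of distal fragments became 0.0989 points and that in fragments over a start 0.367 points.

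A fragment cloned more often can be recovered more often whatever its activity, so reads in the plasmid libraries made with the pSKB vector were compared. Over fragments with a pSKB match, the mean of log2(reads + 1) was 3.29, 3.22, 4.14, 3.46 and 3.32 in replicates 1 to 5 for fragments listed only in the positive set. It was 2.82, 2.70, 3.12, 2.84 and 3.66 for fragments listed only in the Negative set. Positive-only fragments had more plasmid reads in 4 of 5 replicates, by a mean of 0.458 (exact two-sided permutation p = 0.0794). Without replicate 5 the difference was 0.657 (exact permutation p = 0.0286, the smallest that 4 against 4 allows), and with reads of the plasmid libraries in the pDONR donor vector it was -0.0207.

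**Figure D5:**
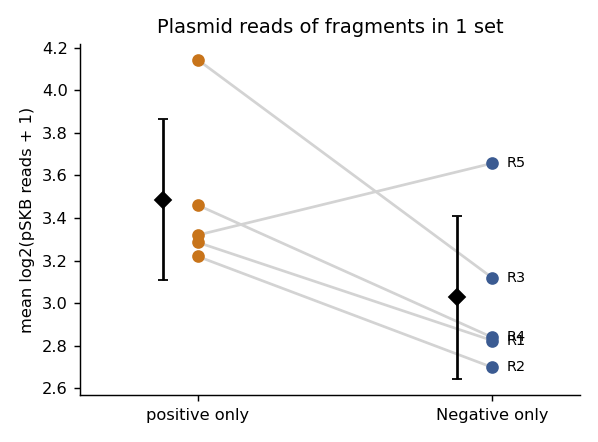
Mean log2(pSKB reads + 1) of HP fragments listed only in the YFP-positive or only in the Negative set of a replicate, joined by replicate, with the mean and SD of 5 in black. Positive-only fragments are higher in replicates 1 to 4 and lower in replicate 5.

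The 2 sets of a replicate overlapped. Fragments in both made up 7.83, 7.25, 5.07, 21.2 and 7.10% of the positive sets of replicates 1 to 5 and 42.0, 13.7, 5.94, 7.50 and 39.0% of the Negative sets. Of the Low gate, 13.2, 13.7, 6.77 and 37.4% of the fragments in replicates 1 to 4 were also Negative, and of the High gate 5.79, 3.07, 7.97 and 13.9%. The High gate was below the Low gate in 3 of 4 replicates, by 10.1 percentage points in the mean (exact two-sided permutation p = 0.20, where 4 against 4 cannot go below 0.0286). In replicate 3, which has the Negative list that stands apart, the Wilson intervals of both gates overlapped (6.27 to 10.1% for High and 5.26 to 8.67% for Low). In replicate 5 the share was 13.1% of Low and 7.23% of Medium/High. The share of the High gate in replicate 2 rests on a list of which a large part is also in the hemangioblast Medium list.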

How the data were processed

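The samples were 19 sorted HP populations, each with a list of distal and a list of promoter fragments. Per the labels and the study's methods, the authors trimmed reads with Trim Galore, aligned them to mm10 with Bowtie2, removed duplicates, and describe filters against the HM-1 control, for identity with plasmid fragments and for open chromatin. The HP lists used here still hold fragments found in the control and fragments without a plasmid match. The sorted lists deposited hold positions without a signal, and the plasmid and HM-1 lists hold read counts per fragment deposited by the authors. Starts were read as 1-based, since 80.5% of 1176712 distinct fragments then matched a plasmid fragment, and 3.44% otherwise; 1042 lines on other sequences were left out. Plasmid reads were summed over the stages. Numbers of promoter genes and distal sites reached at equal size are means of 20 draws. Recurrence in thinned sets and the fits at equal depth come from a single random draw. Fragments were assigned with GENCODE M21 starts. Distinct fragments per promoter gene, locus and site were tested with edgeR 4.0.16 (glmQLFit, glmQLFTest), with the set size as offset and a fragment required in at least 4 of 10 sets. Limma and DESeq2 were alternatives. Other measures were tested by exact permutation, with Benjamini-Hochberg adjustment. Depth was 223 to 127422 fragments per set. The sources do not say whether replicates are separate transfections or cultures, so p-values measure the spread between these samples. Named genes were the 5 with the smallest p per direction in each gene fit and the 4 members of each of 10 lists with most HP fragments, and named sites were the 3 positive in most replicates and the best of 10 blood genes, of which 1 item is not reported here; other list members and a few marked in the text were added after their values were seen. The population, lists and motifs were chosen with earlier results of these data known. The edgeR and limma fits were tested on simulated data.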

Additional observations from a re-analysis of the deposited data

Results flagged for a closer look

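In 12 of 85 groups of 4 or 5 HP sets or single lists tested, 1 value lay far from the others. Chance marks about 1 in 20 such groups, and all 12 were groups of 5 sets. In distal fragments, the positive set of replicate 4 held 0.2542 CEBP matches per kb (others 0.3082 to 0.3217), 0.2188 RBPJ matches (0.2595 to 0.2674) and 0.01774 octamer matches (0.04730 to 0.05432). Its intergenic share was 37.55% (39.60 to 40.26%). The Negative set of replicate 5, the smallest set, held 0.1579 octamer matches per kb in distal fragments (0.02743 to 0.05654). In its promoter fragments the values were 0.2574 for the TAL1 E-box (0.3214 to 0.3405), 0.3816 for the E-box CAGCTG (0.5540 to 0.6020), 0.2662 for CEBP (0.1867 to 0.2070) and 5.893 for KLF/SP (5.092 to 5.272). The GC content of distal fragments was 57.59% in Negative replicate 3 (55.92 to 56.25%), and that of promoter fragments was 66.50% in positive replicate 3 (65.52 to 65.80%). Fragments only in the positive set of replicate 3 had a mean log2(pSKB reads + 1) of 4.143 (3.219 to 3.460).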

How the results depend on the processing

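No feature passed an adjusted p of 0.05 in any of the 3 fits under any alternative, except with a replicate block, where 1 promoter gene did (Sox9, log2 -3.26, edgeR adjusted p = 0.0483). The labels do not say that numbers mark a shared sort, and deviations of same-numbered sets correlated at 0.0642 to 0.189 for promoter genes, 0.0426 to 0.201 for loci and 0.0742 to 0.210 for sites. Replicate 3 was under 0.1 in each, and the other replicates were over 0.1 except replicate 4 for promoter genes. Most sets still correlated best with the same-numbered set of the other group. The exceptions were positive replicate 1 for loci and sites and Negative replicate 2 in all 3 fits. The main fits did not take the numbers as pairs, and the block is an alternative to them. Other calls did not change with the block. TMM moved the median log2 ratio from -0.08 to 0.24 for promoter genes, from -0.20 to 0.34 for loci and from -0.43 to 0.35 for sites. Leaving out each replicate in turn left 0 called in every fit and 0 motifs. Fewer features could be tested without replicate 1 (2701 promoter genes, 840 loci, 463 sites) or replicate 2 (2735, 872 and 519).

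Positive minus Negative GC content of distal fragments reversed to 0.0428 points with the High and Medium/High gates only, and to 0.0274 and 0.0989 without the 4 lists that share fragments and without Negative replicate 3 (both chosen after seeing the data). It ran from -0.380 to 0.196 over the replicates left out, the latter without replicate 3. GC content of promoter fragments ran from -0.255 to -0.0589. The share over a start became 0.256 and 0.367 points in those 2 added settings and ran from -2.63 to -0.0679. The intergenic share ran from -0.813 (without replicate 5) to 1.03 with replicates left out, was 1.25 without Negative replicate 3, and was 3.31 with plasmid-identical fragments only (exact permutation, adjusted p = 0.508). With at least 2 fragments per site, the difference in distal sites at equal depth was -7.18, and with replicates left out it was 41.8 to 134. For promoter genes it was 22.3 to 142. Plasmid reads gave -0.0207 with pDONR and 0.317 (without replicate 3) to 0.657 (without replicate 5). The gate difference ran from -13.9 to -5.63 with 1 replicate left out and was -15.5 without replicates 2 and 3 (added after seeing the data). The cause of these changes was not tested. Depth limits replicates 3 to 5, where most genes and sites have no fragment.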
